A study of Mus musculus with 2 samples.

Results

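The mitochondrial genome transcripts are the RNAs made from the small circular chromosome inside mitochondria, chrM. They were found as the entries whose gene identifier, without its version, maps to an mt- symbol on chrM in the GENCODE annotation of GRCm38, the mouse assembly also called mm10. The rule found 37 of the 43346 genes in the deposited tables, in both libraries. They are 13 mRNAs, 2 rRNAs and 22 tRNAs, and the rule that picks them uses no measured value. In the sentences below, replicate 1 and replicate 2 are the libraries that the labels number so.

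The study measured RNA in neural tube, the embryonic forerunner of brain and spinal cord, from B6NCrl mice at embryonic day 11.5. All samples belong to 1 group with no treatment and no altered allele, so no groups can be compared. Replicate 1 came from a pool of 109 embryos of both sexes and replicate 2 from a pool of 88. RNA was isolated with the mirVana kit, molecules longer than 200 bases were kept, libraries began from 10 ng, and spike-in RNAs were present. The assay is titled total RNA-seq while the general protocol listed is SmartSeq, a method that copies RNA from its poly(A) tail, and the sources used here do not settle which describes the libraries. Levels of RNAs with short or no tails are to be read with that doubt.

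The total expected count, the estimated number of reads summed over all entries, was 27638068 in replicate 1 and 29166901 in replicate 2. All 4 of 4 neural progenitor markers and 4 of 4 young neuron markers stood at 1 TPM or more in both libraries, with summed levels of 817 and 840 TPM for progenitors and 1162 and 1352 TPM for neurons. Markers of other cells were present too. Erythroid genes summed to 10225 and 10357 TPM (4 of 4 detected), skeletal muscle to 379 and 304 (4 of 4), connective tissue to 459 and 410 (4 of 4) and macrophages to 40.8 and 40.7 (3 of 3). Heart genes summed to 4.96 and 16.6 TPM (1 of 3 detected) and liver genes to 5.82 and 3.12 TPM (1 of 3). In such bulk tissue, fewer cells of a type and less RNA per cell cannot be told apart, and the part of the other cell types in the mitochondrial levels was not tested.

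Mammalian mitochondrial DNA is copied and read inside the organelle, separately from the nuclear genome. Both of its strands are transcribed into long precursors by the polymerase Polrmt with the packaging factor Tfam and the cofactor Tfb2m. The tRNAs lie between most of the other genes and are cut out at both ends, which frees the mRNAs and rRNAs. Most of the mRNAs then receive poly(A) tails. The mRNAs encode core membrane subunits of respiratory chain complexes I, III and IV and of ATP synthase (complex V), and the rRNAs and tRNAs serve the mitochondrial ribosome. All other subunits are encoded in the nucleus, which also carries old insertions of mitochondrial DNA.

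The genes are packed closely, which bears on how reads can be assigned. Of 36 adjacent pairs of genes on chrM, 12 abut, 9 overlap, 14 are 1 to 5 bases apart and 1 lies farther apart, at 32 bases. Of the 15 mRNA and rRNA genes, 14 lie next to a tRNA gene. The sequences on which the results turn were read from GENCODE M21 transcripts on GRCm38, 5′ to 3′ on the strand of the gene. The next lines give the shortest and the longest tRNA, all in lower case, and the overlaps of the pairs mt-Atp8 with mt-Atp6 and mt-Nd4l with mt-Nd4, where capitals mark the 43 and 7 bases that belong to both genes. The start of mt-Nd6, the mRNA on the minus strand, follows with its start codon in capitals.
mt-Ts2, chrM:11613-11671, plus strand: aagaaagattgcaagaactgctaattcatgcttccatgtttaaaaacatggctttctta
mt-Tl1, chrM:2676-2750, plus strand: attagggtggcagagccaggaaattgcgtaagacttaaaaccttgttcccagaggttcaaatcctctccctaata
mt-Atp8 into mt-Atp6, chrM:7912-7984, plus strand: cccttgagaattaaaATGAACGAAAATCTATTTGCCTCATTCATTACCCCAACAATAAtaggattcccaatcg
mt-Nd4l into mt-Nd4, chrM:10147-10193, plus strand: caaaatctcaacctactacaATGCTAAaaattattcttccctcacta
mt-Nd6 start, chrM:14011-14070, minus strand: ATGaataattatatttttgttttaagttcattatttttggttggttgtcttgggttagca

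On chromosome 1 of the nucleus, a run of unprocessed pseudogenes on the minus strand repeats part of the mitochondrial genome almost letter for letter. The next lines set the ends of 3 mitochondrial mRNA genes beside the ends of their copies as annotated. Capitals mark the bases of the mitochondrial gene that lie past the end of the annotated copy.
mt-Co3 end, chrM:9331-9390, plus strand: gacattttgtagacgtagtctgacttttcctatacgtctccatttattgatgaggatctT
Gm28437 end, chr1:24613189-24613247, minus strand: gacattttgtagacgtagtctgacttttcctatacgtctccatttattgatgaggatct
mt-Atp6 end, chrM:8548-8607, plus strand: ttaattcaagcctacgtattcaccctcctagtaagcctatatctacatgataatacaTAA
Gm10925 end, chr1:24613974-24614030, minus strand: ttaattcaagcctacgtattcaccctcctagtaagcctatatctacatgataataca
mt-Co2 end, chrM:7637-7696, plus strand: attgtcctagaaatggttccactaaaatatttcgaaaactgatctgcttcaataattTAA
Gm28661 end, chr1:24614885-24614941, minus strand: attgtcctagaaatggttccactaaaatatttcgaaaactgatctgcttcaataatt

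As annotated, the copies of mt-Co2 and mt-Atp6 end before the last 3 bases, the stop codon, and that of mt-Co3 before the last base. The chr1 sequence past these annotated ends was not examined. The copy of mt-Co1, Gm29216, matches positions 1054 to 1545 of the gene except at 6 positions, all within its first 13 bases. Counted from 1 at the 5′ end of mt-Co1, with the mitochondrial base first, they are T1056A, C1057T, A1059G, A1060G, C1062A and A1066T. Capitals mark them in the next lines.
mt-Co1 stretch, chrM:6381-6440, plus strand: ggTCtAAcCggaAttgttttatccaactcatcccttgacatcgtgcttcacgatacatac
Gm29216 start, chr1:24616138-24616197, minus strand: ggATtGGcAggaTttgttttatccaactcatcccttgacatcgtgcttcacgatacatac

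Mitochondrial genes held 1.09% ± 0.0495 of all expected counts (SD, n = 2), 311594 counts in replicate 1 (1.13%) and 308397 in replicate 2 (1.06%). In TPM, which divides each count by the effective length of its entry and scales the library to a fixed sum, they held 2.38% ± 0.0766. The mRNAs made up 83.1% ± 0.0268 of the mitochondrial counts, with 258842 counts in replicate 1 and 256303 in replicate 2. The rRNAs made up 16.9% ± 0.0268, with 52752 and 52094 counts. The mRNA-to-rRNA division was thus close to the same in both libraries. Whether the rRNAs carried poly(A) tails was not measured, so the doubt over the library protocol applies to this division. It is a division of counts in these libraries and not a measure of the tissue's RNA content.

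All 22 tRNAs were listed at 0 in both libraries. These genes, 59 to 75 bases long, carry the amino acids to the mitochondrial ribosome, and 14 lie on the plus strand and 8 on the minus strand. They are mt-Tf, mt-Tv, mt-Tl1, mt-Ti, mt-Tq, mt-Tm, mt-Tw, mt-Ta, mt-Tn, mt-Tc, mt-Ty, mt-Ts1, mt-Td, mt-Tk, mt-Tg, mt-Tr, mt-Th, mt-Ts2, mt-Tl2, mt-Te, mt-Tt and mt-Tp. The deposited effective length is the length less 99 bases, the number of places at which a stretch of 100 bases could begin. It is therefore 0 for every entry of up to 99 bases, and the highest count among the 28403 such entries was 0. The RNA was also selected for more than 200 bases. A listed 0 is thus no measurement of the tRNAs, and no upper limit can be given. Shares of mRNA and rRNA are shares of the other 15 members, called the measured members here.

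The rRNAs differed from each other by a factor of 3.44 in TPM, and the doubt over the library protocol applies to the levels of both. mt-Rnr2, the RNA of the large ribosomal subunit (chrM:1094-2675), stood at 1759 TPM in replicate 1 and 1668 TPM in replicate 2 (mean 1714 ± 63.9), from 45377 and 44415 counts. mt-Rnr1, the RNA of the small subunit (chrM:70-1024), stood at 495 and 500 TPM (mean 497 ± 3.19), from 7375 and 7679 counts. The log2 ratio of mt-Rnr2 to mt-Rnr1 was 1.83 in replicate 1 and 1.74 in replicate 2 (mean 1.78 ± 0.06), much wider than the spread between libraries. mt-Nd1, the mRNA that follows mt-Rnr2 on the same strand with 1 tRNA gene between them, stood slightly above it, by 0.25 ± 0.06 on the log2 TPM scale.

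The ATP synthase mRNAs were the highest members as deposited. mt-Atp6, which encodes the proton channel subunit (chrM:7927-8607), stood at 5625 and 5511 TPM (mean 5568 ± 80.4), rank 8 of all 43346 genes by mean TPM. mt-Atp8 (chrM:7766-7969), which encodes a small membrane subunit, stood at 4881 and 4739 TPM (mean 4810.4 ± 100.4), rank 9. These genes share one mRNA in mammals, and mt-Atp8 was 0.21 ± 0.01 lower than mt-Atp6 in log2 TPM. mt-Atp8 is a short gene of 204 bases, and 1 TPM of it rested on 1.83 and 1.89 counts in the 2 libraries, against 30.01 and 30.97 counts for the long mt-Nd5.

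mt-Cytb, the mitochondrial subunit of complex III (chrM:14145-15288), had the smallest relative spread of the measured members as deposited, 0.108% of its mean. It stood at 2580.1 and 2576 TPM (mean 2578 ± 2.77), from 46907 and 48326 counts. It was 8.28-fold above mt-Nd5 (log2 3.05 ± 0.07), the gene upstream of it on the plus strand, with mt-Nd6 and a tRNA between them on the minus strand.

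The cytochrome oxidase (complex IV) mRNAs encode its catalytic core. mt-Co1 (chrM:5328-6872) stood at 1656 and 1619 TPM (mean 1638 ± 26.3), from 41671 and 42032 counts. mt-Co2 (chrM:7013-7696) stood at 1501 and 1408 TPM (mean 1455 ± 65.5), from 15276 and 14789 counts. These genes kept their order in both libraries. mt-Co3 (chrM:8607-9390) did not keep its level: it stood at 1211 TPM in replicate 1 and 749 TPM in replicate 2 (mean 980.2 ± 327), from 14437 and 9210 counts. Its relative spread, 33.4%, was the widest of the 15 measured members.

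Complex I mRNAs encode subunits of the membrane arm of NADH dehydrogenase and covered the widest range of levels. mt-Nd1 (chrM:2751-3707) was the highest, at 2031 and 2042 TPM (mean 2037 ± 7.78), followed by mt-Nd4 (chrM:10167-11544), at 981 and 972 TPM (mean 977 ± 6.43). mt-Nd2 (chrM:3914-4951) stood at 521 and 506 TPM (mean 514 ± 10.7). These 3 varied little between the libraries. The lower members had relative spreads of 4.69% to 15.3%: mt-Nd3 (chrM:9459-9806) stood at 382 and 307 TPM (mean 345 ± 52.8), and mt-Nd5 (chrM:11742-13565), one of the proton-pumping subunits, at 322 and 301 TPM (mean 312 ± 14.6). mt-Nd4l (chrM:9877-10173) was the lowest mRNA, at 75.8 and 93.8 TPM (mean 84.8 ± 12.7) from 261 and 333 counts, rank 1970 of all genes.

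mt-Nd6 (chrM:13552-14070), also of complex I, is the sole mRNA gene on the minus strand, and its mRNA comes from the precursor that otherwise holds mostly tRNAs. It stood at 334 and 278 TPM (mean 306 ± 39.2), from 2437 and 2097 counts. Its log2 TPM minus the median of the 12 mRNAs of the plus strand was -2.02 in replicate 1 and -2.07 in replicate 2 (mean -2.04 ± 0.04), so it was lower in both. That median was 1259 ± 126 TPM. Whether mt-Nd6 RNA carried a poly(A) tail was not measured, so the doubt over the library protocol applies to this comparison. Against mt-Nd5 alone, whose end overlaps the end of mt-Nd6 by 14 bases on the opposite strand, the log2 difference was 0.05 in replicate 1 and -0.12 in replicate 2 (mean -0.03 ± 0.12), within the spread between libraries. The labels and file descriptions do not say whether reads kept their strand. Reads over these 14 bases, and any antisense RNA across either gene, cannot be told apart.

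**Figure D1:**
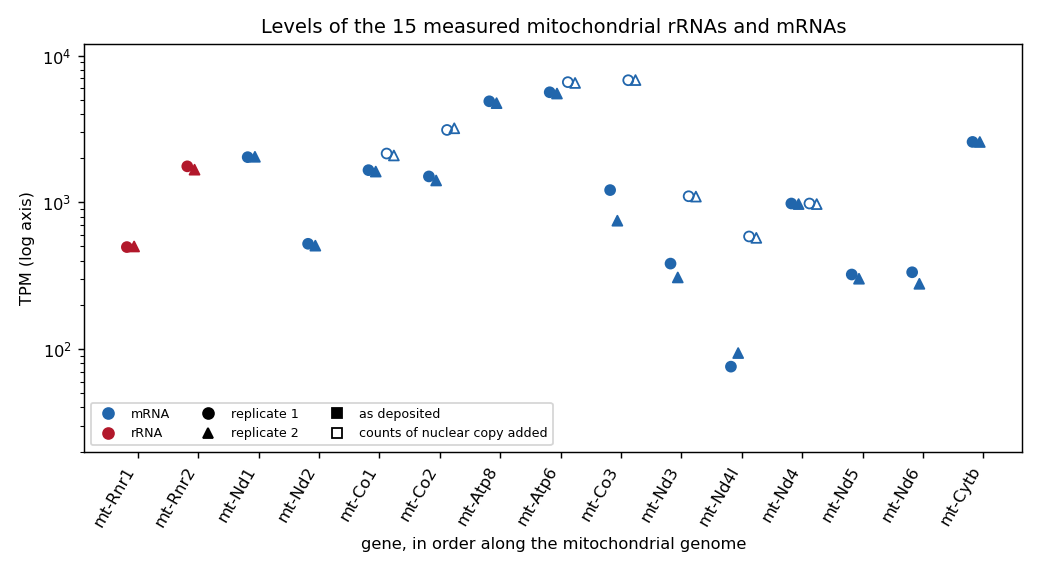
TPM (log axis) of the 15 measured mitochondrial genes in order of position on chrM, with 1 point per library. Filled symbols are deposited values and open symbols the values with the counts of each nuclear copy added; mt-Co3 moves from 1211 and 749 TPM to 6795 and 6810.1 TPM.

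From highest to lowest mean TPM, the deposited order was mt-Atp6, mt-Atp8, mt-Cytb, mt-Nd1, mt-Rnr2, mt-Co1, mt-Co2, mt-Co3, mt-Nd4, mt-Nd2, mt-Rnr1, mt-Nd3, mt-Nd5, mt-Nd6 and mt-Nd4l. The libraries of neighbours in this order overlapped for mt-Co3 and mt-Nd4, for mt-Nd3 and mt-Nd5, and for mt-Nd5 and mt-Nd6; the other neighbours did not overlap, with only 2 libraries behind that statement. Across the 12 plus-strand mRNAs, mean TPM had a Spearman rho of -0.31 with start position, and across the 13 mRNAs of 0.04 with length and 0.01 with GC content. These are descriptions across genes that share their libraries and their precursors, and genes are not independent replicates.

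The deposited split of reads between 7 mitochondrial mRNA genes and nuclear entries decided several of these levels. A nuclear entry was counted as a copy where at least 50% of its 100-base windows occur in a mitochondrial gene. The 7 copies are unprocessed pseudogenes on chr1, minus strand: Gm29216 for mt-Co1 (chr1:24615706-24616197), Gm28661 for mt-Co2 (chr1:24614885-24615565), Gm10925 for mt-Atp6 (chr1:24613974-24614651), Gm28437 for mt-Co3 (chr1:24613189-24613971), Gm28438 for mt-Nd3 (chr1:24612775-24613119), Gm10222 for mt-Nd4l (chr1:24612407-24612700) and Gm28439 for mt-Nd4 (chr1:24611535-24612410). They follow each other in the order of the mitochondrial genes. Together they were given 110024 counts in replicate 1 and 121051 in replicate 2, which is 27.1% ± 1.48 of the counts of mitochondrial genes and copies together. A read that lies wholly in a shared stretch fits both places equally, so the counts of a gene and its copy are a division made by the quantification and not separate measurements.

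Seen from the mitochondrial side, mt-Co3 has 1 window of 685 that its copy lacks, mt-Co2 3 of 585, mt-Atp6 3 of 582, mt-Nd4l 3 of 198 and mt-Nd3 6 of 249. mt-Nd4 has 502 of 1279 windows that its copy lacks and mt-Co1 1066 of 1446, while 7 members share no window with any nuclear transcript. These 7 include mt-Atp8, which lies between mt-Co2 and mt-Atp6. Nuclear sequence outside annotated transcripts was not compared. The share of the summed counts that stayed with the mitochondrial gene ranged widely. It was 85.3% and 84.7% for mt-Atp6, 77.0% and 77.6% for mt-Co1 and 48.2% and 44.1% for mt-Co2. It was lower for mt-Nd3 at 34.7% and 28.1%, for mt-Co3 at 17.8% and 11.0%, and for mt-Nd4l at 12.96% and 16.4%. For mt-Nd4 all counts stayed with the mitochondrial gene, since Gm28439 was given 0 counts in both libraries. The split thus differed between neighbouring genes of 1 nuclear run, from none of the counts at Gm28439 to most of them at Gm28437.

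**Figure D2:**
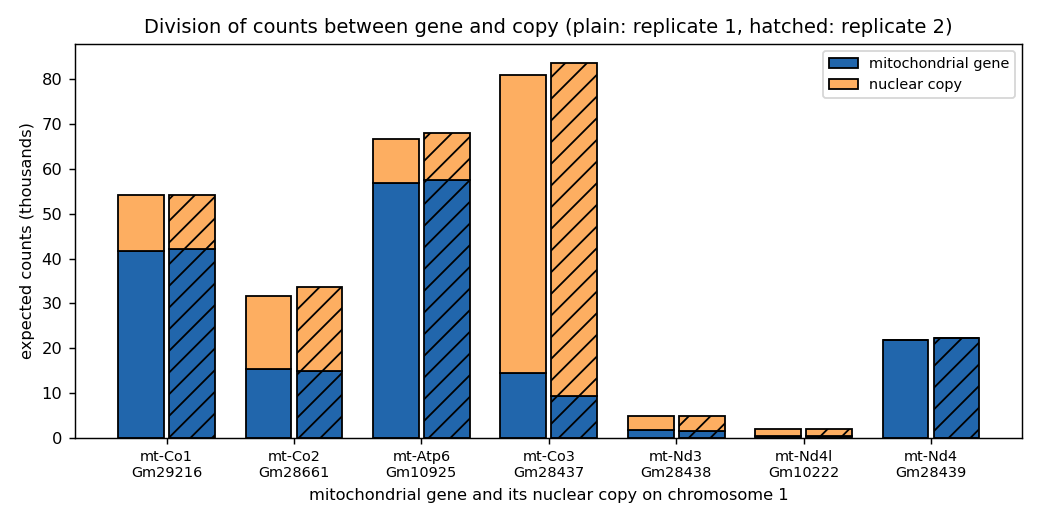
Expected counts of 7 mitochondrial mRNA genes and of their nuclear copies in each library. The copy of mt-Co3 takes most of the summed counts, and the copy of mt-Nd4 takes none.

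Density, the expected counts divided by the number of possible start places, sets gene and copy on 1 scale. mt-Atp6 had 97.9 and 98.9 counts per start place against 16.9 and 18.03 in Gm10925. mt-Co3 had 21.1 and 13.4 against 97.3 and 109 in Gm28437. The density that mt-Atp6 had was thus close to that of the copy of its neighbour mt-Co3, which begins at the last base of mt-Atp6. mt-Co1 has the longest stretch of its own among the genes whose copies were given counts. The whole gene had 28.8 and 29.1 counts per start place and Gm29216 had 31.6 and 30.8. These values are not like for like, since only 380 of the gene's 1446 windows lie in the copy. The density of the gene within the shared stretch alone was not measured.

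The deposited files also hold a second estimate, a posterior mean count with its posterior standard deviation. That standard deviation was 0 for the 7 members that share no window with a nuclear transcript. For mt-Nd4 it was 3.55 and 4.01 counts and for mt-Co1 103 and 103 counts, 0.246% of the posterior mean in replicate 1. It was 5258 and 5364 counts for mt-Co2 and 9600 and 9635 for mt-Atp6. It reached 18425 counts in replicate 1 and 22612 in replicate 2 for mt-Co3, beside posterior mean counts of 30204 and 31046. The posterior mean of mt-Co3 was thus above its deposited expected counts of 14437 and 9210 in both libraries.

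The deposited files also give TPM intervals, whose level the labels and file descriptions do not state. For mt-Co3 the interval ran from 687 to 4777 TPM in replicate 1 and from 436 to 5167 TPM in replicate 2, a factor of 6.95 and 11.9 between its ends. For mt-Nd4l it ran from 20.4 to 249 TPM and from 22.4 to 426 TPM, a factor of 12.2 and 18.98. Intervals of mt-Co2 (1106 to 2780 TPM in replicate 1) and mt-Atp6 (3435 to 6002 TPM in replicate 1) were narrower in proportion. The interval of mt-Rnr1, with no counted copy, ran from 468 to 490 TPM in replicate 1. It held the posterior mean TPM of 479, while the deposited TPM of 495 lay above it. In replicate 1 the deposited TPM also lay above the interval for mt-Rnr2, mt-Nd1, mt-Nd2, mt-Co1, mt-Atp8, mt-Nd4, mt-Nd5 and mt-Cytb. It lay inside the interval for mt-Nd6, mt-Co2, mt-Atp6, mt-Co3, mt-Nd3 and mt-Nd4l. The intervals of mt-Co3 and mt-Nd4l were thus wide beside that of mt-Rnr1.

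**Figure D3:**
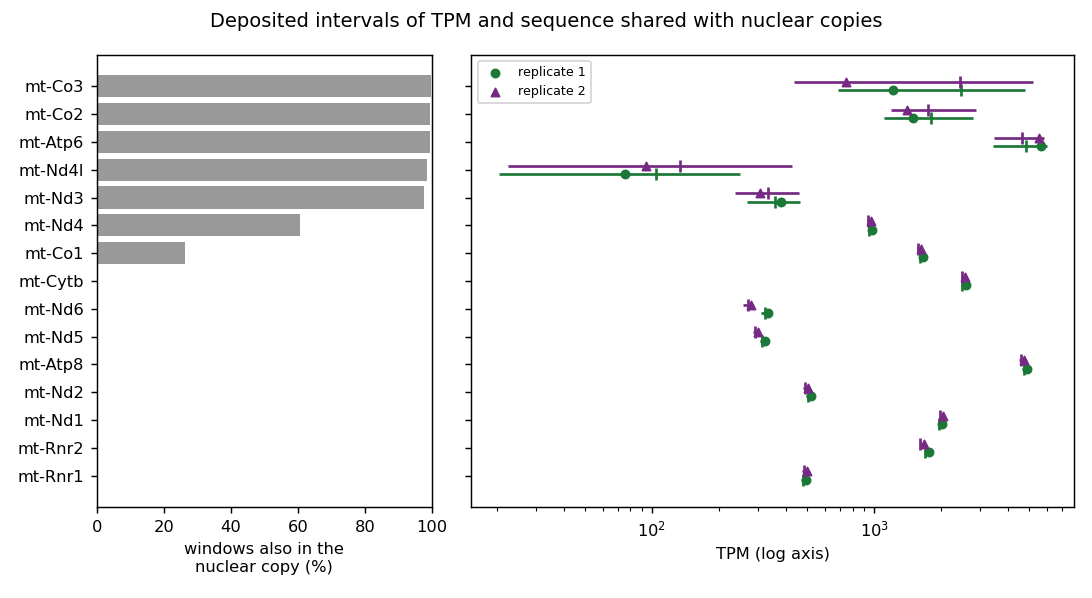
Deposited TPM (circles and triangles), posterior mean TPM (ticks) and deposited interval (bars; log axis) of each measured gene in each library. The left panel gives the window shares of the genes. For mt-Co3 the deposited TPM was 1211 in replicate 1 and 749 in replicate 2. Its posterior mean TPM was 2453 and 2446. Bars of mt-Co3 and mt-Nd4l span a factor of 6.95 to 18.98, and bars of genes with no counted nuclear copy are short.

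Adding the counts of a copy to its gene, over the gene's own effective length, gives a level that does not depend on the split but counts any true RNA of the copy as mitochondrial. On this scale mt-Co3 stood at 6795 TPM in replicate 1 and 6810.1 TPM in replicate 2 (mean 6803 ± 10.4), 6.94-fold its deposited mean, and was the highest member. mt-Atp6 stood at 6592 and 6510 TPM (mean 6551 ± 58.3), and mt-Co3 was above it by 0.05 ± 0.02 in log2 TPM where the deposited values put it 2.55 ± 0.47 below. The order of these neighbours thus turned with the treatment of the copies, and so did the width of the gap.

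The same sum raised mt-Co2 to 3113 and 3195 TPM (mean 3154 ± 58.3) and mt-Co1 to 2149.9 and 2086 TPM (mean 2118 ± 45.4). It raised mt-Nd3 to 1099.7 and 1094 TPM (mean 1097 ± 4.36). mt-Nd4l, the lowest as deposited, rose 6.82-fold to 585 and 572 TPM (mean 579 ± 8.97). mt-Nd4l and mt-Nd4 share one mRNA in mammals: mt-Nd4l was 11.6-fold below mt-Nd4 as deposited (log2 -3.53 ± 0.23) and 1.69-fold below it with copies added (log2 -0.76 ± 0.01). In the other pair on one mRNA, mt-Atp8 was below mt-Atp6 by 0.45 ± 0.02 in log2 TPM with copies added.

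Adding the copies made 5 of the 6 affected genes more alike between the libraries. The relative spread of mt-Co3 went from 33.4% to 0.153% of the mean, that of mt-Nd3 from 15.3% to 0.398% and that of mt-Nd4l from 15.01% to 1.55%. For mt-Co2 it went from 4.50% to 1.85% and for mt-Atp6 from 1.44% to 0.891%, while for mt-Co1 it went the other way, from 1.61% to 2.14%. With n = 2, each spread rests on 1 difference. The order with copies added was mt-Co3, mt-Atp6, mt-Atp8, mt-Co2, mt-Cytb, mt-Co1, mt-Nd1, mt-Rnr2, mt-Nd3, mt-Nd4, mt-Nd4l, mt-Nd2, mt-Rnr1, mt-Nd5 and mt-Nd6. Only mt-Nd5 and mt-Nd6 then overlapped among neighbours, and the rho between this order and the deposited one was 0.79 across the 15 genes.

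Shares of whole complexes moved with the same choice. Of the mitochondrial mRNA counts, complex IV held 26.7% ± 1.28 as deposited and 45.3% ± 0.159 with copies added. Complex I went from 29.1% ± 0.410 to 21.5% ± 0.136, complex III from 18.5% ± 0.518 to 12.8% ± 0.0636 and complex V from 25.7% ± 0.355 to 20.5% ± 0.0868. The mRNA share of mitochondrial counts was 87.7% ± 0.270 and the rRNA share 12.3% ± 0.270 with copies added, and all mitochondrial counts with copies were 1.499% ± 0.0376 of the total. The median of the plus-strand mRNAs became 2077 ± 18.3 TPM, and the log2 TPM of mt-Nd6 minus this median was -2.77 ± 0.17.

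The ratio of the libraries asks how far each level repeats between the pools. It has 1 library on each side and no test; values are log2 of replicate 2 over replicate 1 after TMM scaling, which sets most genes to no change. Of the 15 measured members, 1 was past 1.5-fold, mt-Co3, lower in replicate 2 at -0.74, against 10.8% of the 17219 genes tested (4.87% higher and 5.94% lower) and 1.11% of the 12351 genes with a mean of 100 counts or more. All measured members have a mean above 100 counts. mt-Nd3 was at -0.36, mt-Nd6 at -0.30 and mt-Nd4l at 0.26, and the other 11 lay between -0.14 and -0.03. The median was -0.09, beside -0.00 for all genes tested.

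With the counts of copies added, 0 of 15 were past 1.5-fold, against 10.8% of 17213 genes (4.87% higher and 5.94% lower) and 1.1% of the 12345 with a mean of 100 counts or more. mt-Co3 was then at -0.04, mt-Nd3 at -0.05 and mt-Nd4l at -0.07, and the median was -0.06. mt-Nd6, which has no counted copy, stayed at -0.30 and was the farthest from 0. As deposited, scaling the libraries by the spike-ins in place of TMM moved the median of all genes to 0.20 and that of the members to 0.11. Relative to all genes the members' median was slightly lower in replicate 2. The 183 listed nuclear genes described below had a median of -0.05 with TMM scaling. The members share their libraries and precursors and are not independent replicates. A change of scaling moves all genes by nearly the same amount, so the spike-in scaling adds no separate support. The spike-ins took 5.37% ± 0.498 of all counts.

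**Figure D4:**
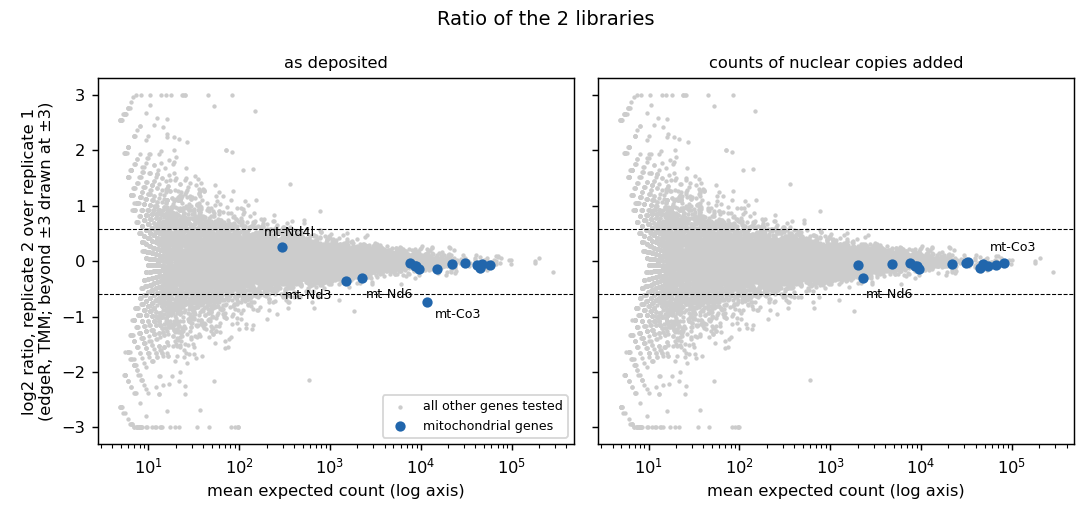
Log2 ratio of replicate 2 over replicate 1 against mean expected count (log axis), with mitochondrial genes in blue, other genes in grey and dashed lines at 1.5-fold. On the left, with values as deposited, mt-Co3 lies at -0.74; on the right, with counts of copies added, it lies at -0.04.

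Nuclear partners of these genes were measured from lists of complex subunits. Complexes I, III, IV and V had 71 listed nuclear subunits, all at 1 TPM or more in both libraries, with a median of 327 ± 5.97 TPM, against 1092 ± 169 TPM for the 13 mitochondrial mRNAs as deposited and 2037 ± 7.78 TPM with copies added. The difference of the medians was 1.73 ± 0.25 in log2(TPM + 1) as deposited, 3.31-fold, and 2.64 ± 0.02 with copies added, 6.22-fold. Mitochondrial mRNAs thus had the higher median under either treatment, and their margin differed by more than the spread between libraries. Reads that nuclear subunit genes may share with pseudogenes of their own were not examined.

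Complex by complex, the gap was narrowest for complex I. Its 7 mitochondrial mRNAs had a median of 345 ± 52.8 TPM as deposited and 579 ± 8.97 TPM with copies added, against 217 TPM in both libraries for 36 nuclear subunits. The highest of these were Ndufc1 at 542 ± 32.2 TPM, the acyl carrier Ndufab1 at 535 ± 26.3 TPM and Ndufb8 at 429 ± 22.4 TPM, and the lowest Ndufb4 at 35.8 ± 1.78 TPM. As deposited, 2 of the 7 mitochondrial mRNAs stood above the highest nuclear subunit and 1, mt-Nd4l, below the nuclear median; with copies added these counts were 4 and 0. In complex III, mt-Cytb was 7.31-fold above the median of 9 nuclear subunits, 352 ± 13.9 TPM. These ran from Uqcrq at 442 ± 0.396 TPM, Uqcr10 at 406 ± 7.14 TPM and Uqcr11 at 399 ± 20.1 TPM down to the core protein Uqcrc2 at 157 ± 9.60 TPM.

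In complex IV, the means of all 3 mitochondrial mRNAs stood above the highest of 11 nuclear subunits. As deposited this held for 3 of 3 in replicate 1 and for 2 of 3 in replicate 2, where mt-Co3 at 749 TPM was below Cox6b1 at 782 TPM; with copies added it held for all 3 in both. The difference of medians was 1.32 ± 0.01 in log2(TPM + 1) as deposited and 2.44 ± 0.08 with copies added. The nuclear median was 582 ± 23.6 TPM, with Cox6b1 at 784 ± 3.67 TPM, Cox4i1 at 729 ± 1.65 TPM and Ndufa4 at 679 ± 21.7 TPM highest and Cox7b at 238 ± 5.75 TPM lowest. In complex V, mt-Atp6 and mt-Atp8 had a median of 5189 ± 90.4 TPM against 436 ± 0.354 TPM for 15 nuclear subunits, a difference of 3.57 ± 0.03 in log2(TPM + 1). The highest nuclear subunits were the catalytic Atp5b at 1904 ± 46.0 TPM, Atp5a1 at 735 ± 27.9 TPM and Atp5g3, a subunit of the rotor ring, at 699 ± 7.51 TPM, and the lowest was Atp5l at 134 ± 24.5 TPM. The margin of complex V was the widest of the 4 complexes, and that of complex I the narrowest, as deposited and with copies added.

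**Figure D5:**
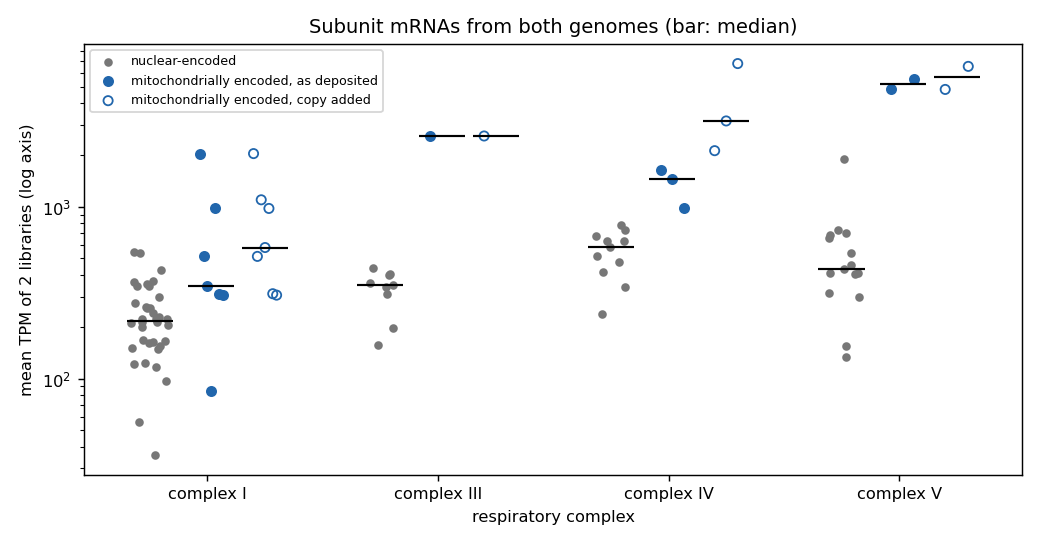
TPM (log axis) of mitochondrial mRNAs and nuclear subunits of complexes I, III, IV and V, 1 point per gene as the mean of the 2 libraries and a bar at each median; filled blue points are deposited values and open ones have copies added. All mitochondrial points of complexes III, IV and V lie above the nuclear points of the same complex (as means; mt-Co3 as deposited was below Cox6b1 in replicate 2), and those of complex I overlap with them.

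The nuclear genes that copy, transcribe, process and translate mitochondrial RNA stood lower. The 15 listed genes of mitochondrial DNA replication and transcription had a median of 23.4 ± 0.0495 TPM. The highest were the single-strand DNA binding protein gene Ssbp1 at 118 ± 2.25 TPM, Tfam at 60.5 ± 2.96 TPM and Mterf3, of the termination factor family, at 53.1 ± 4.23 TPM, and the lowest was Mterf1b at 2.54 ± 0.523 TPM. The 20 listed genes of RNA processing and stability had a median of 32.4 ± 2.43 TPM. Slirp, which stabilises mitochondrial mRNAs, led at 229 ± 8.33 TPM, followed by Hsd17b10, a subunit of the enzyme that cuts tRNAs at their 5′ ends, at 139 ± 7.01 TPM and Grsf1, a protein of mitochondrial RNA granules, at 83.9 ± 0.884 TPM. The lowest was 1110008L16Rik, the nuclease subunit of that same enzyme, at 11.7 ± 2.98 TPM.

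The 77 listed genes of mitochondrial ribosomal proteins had a median of 82.9 ± 2.06 TPM, below both rRNAs, from Mrps21 at 276 ± 4.01 TPM, Mrpl42 at 223 ± 0.0141 TPM and Mrpl28 at 198 ± 4.45 TPM down to Mrpl1 at 17.8 ± 0.290 TPM. The doubt over the library protocol applies to the comparison with the rRNAs. All genes of these lists were at 1 TPM or more in both libraries. None of the 183 listed nuclear genes was past 1.5-fold between the libraries, against the 10.8% and 1.11% given above, and their median log2 ratio was -0.05.

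The ends of the mRNA genes differ in ways the levels do not show. Of the 13 mRNA genes, 9 begin with ATG, mt-Nd1 begins with GTG, mt-Nd2 with ATA, mt-Nd3 with ATT and mt-Nd5 with ATC. A complete stop codon ends 10 of them. In mt-Co3, mt-Nd4 and mt-Cytb the annotated gene ends within the stop codon, which in mammalian mitochondria is completed by the poly(A) tail; the single T at the end of mt-Co3 is the base in capitals in the sequences above.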

How the data were processed

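RNA was measured in 2 libraries of 1 group. The assay is titled total RNA-seq beside a listed SmartSeq protocol, and which describes the libraries is not settled. The authors deposited TPM values and expected counts (estimated reads per gene) for mm10 with GENCODE M4, per the deposited file descriptions; aligner and quantifier: not given in the sources used here. The TPM values as deposited sum to 1000000 in each library, spike-ins included. Posterior mean counts, their standard deviations and TPM intervals come from the same deposited files. Symbols and sequences came from GENCODE M21 on GRCm38; 42462 of 43346 identifiers matched and 884 did not. The files also list 97 spike-ins and 26248 numbered entries, which stayed out of gene lists and tests.

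The rule for the members uses chromosome and symbol alone, but this set of genes and the lists were chosen with earlier results of these data known. The text names all 37 members, the nuclear copies, and of each list the 3 highest genes and the lowest; sequences are shown for members that share or overlap sequence, for the mt-Nd6 start and for the shortest and longest tRNA. Copies were found by exact 100-base windows of GENCODE M21 transcripts on either strand. All 37 members have 1 transcript with the same value in the deposited transcript tables.

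Levels are given as mean ± SD of 2 libraries, and the labels give no test between groups. Library ratios used expected counts rounded to whole numbers, edgeR 4.0.16 with TMM scaling, a prior count of 2 and genes that reached 10 counts in either library. Size factors of DESeq2 1.42.0 were an alternative. The pseudocount on log2(TPM + 1) was 1. The ratio step was run on simulated counts with known fold changes. These counts held random sampling spread alone, with no spread between pools and no division of reads between gene and copy. The simulation thus checks the calculation and says nothing about the ratio of mt-Co3. No molecular identifiers are described, so reads may repeat a molecule, and the SD of 2 pools is imprecise. R was 4.3.3 and Python 3.11.15, with Biopython 1.88.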

Additional observations from a re-analysis of the deposited data

How the results depend on the processing

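No paired analysis was possible because the series has only 1 group. The mitochondrial share of counts, 1.09%, was 1.15% from posterior mean counts, 1.499% with copies added, 1.15% without spike-ins and 2.38% as a share of TPM; with 1 library left out it ran from 1.06% to 1.13%. The mRNA share, 83.1%, was 83.9% from posterior mean counts and 87.7% with copies added, and 83.07% to 83.11% with 1 library left out. The log2 ratio of mt-Rnr2 to mt-Rnr1, 1.78, was 1.85 per base of full length, and 1.74 to 1.83 with 1 library left out.

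mt-Nd6 minus the plus-strand median, -2.04, was -2.51 with posterior mean TPM, -2.91 with the TPM of copies added, -2.16 per base of full length and, as an alternative chosen after seeing the data, -2.77 with counts of copies added; with 1 library left out it ran from -2.07 to -2.02. Mitochondrial minus nuclear subunits, 1.73, was 2.32 with posterior mean TPM and 2.64 with the TPM of copies added, as with their counts added, chosen after seeing the data; with 1 library left out it ran from 1.55 to 1.91. None of these reversed.

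The count of members past 1.5-fold, 1, was 2 at a threshold set below 1.5-fold (mt-Co3 and mt-Nd3), 0 with spike-in scaling, 0 with posterior mean counts and 0 with copies added. It stayed at 1 with DESeq2 size factors, total counts and no filter, and cannot be had from 1 library. The log2 ratio of mt-Co3, -0.74, was -0.54 with spike-in scaling, -0.05 with posterior mean counts and -0.04 with copies added. Spike-in scaling moved the median of all genes from -0.00 to 0.20.

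The lowest measured member, mt-Nd4l, rested on 261 and 333 counts. The tRNAs cannot be read at all. With 1 group, no test between groups is possible.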

Other observations

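A second, more diverged set of nuclear copies lies on chr2 and shares few exact 100-base windows with the mitochondrial genes, so it was not counted among the copies. Gm13340 (chr2:22588103-22589647) matches mt-Co1 at 1508 bases with 37 mismatches and was given 13.2 counts in replicate 1 and 11.6 in replicate 2. Gm13341 (chr2:22587291-22587962) matches mt-Co2 at 656 bases with 16 mismatches and 12 bases in gaps, and was given 9.50 and 10.6 counts. Gm13339 (chr2:22590024-22590533) matches mt-Nd2 at 493 bases with 17 mismatches and was given 1.40 and 0 counts. The near-identical copies on chr1 with counts were given 1701 to 74530 counts each per library.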
